A study of Mus musculus with 6 samples.

Results

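The genes described here are those of inflammatory caspases and necroptosis: Casp1, Casp4, Casp12, Casp8, Gsdmd, Nlrp3, Pycard, Ripk1, Ripk3 and Mlkl. They were chosen by symbol, with earlier results of these data known, and are 10 of the 23420 genes in the deposited count tables. All 10 passed the filter on low counts, as did 14388 genes in all. RNA of freshly isolated splenic dendritic cells was sequenced in 6 libraries, 3 with the label TBK1-DKO and 3 of wild type mice (WT), all of strain C57BL/6, with no treatment named in the labels. For every library the labels give 2 ages, 8 weeks in the protocol and 10 weeks elsewhere, which cannot both hold. DKO is not spelled out in the labels, nor are the alleles, the promoter or cell type of any deletion, the way the cells were isolated, or whether a library came from 1 animal, so p-values measure only how far these samples vary, which may be technical.

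Inflammasomes are protein platforms that a sensor such as NLRP3 and the adaptor ASC, encoded by Pycard, build to activate caspase-1. Caspase-1 matures the cytokines interleukin-1 beta and interleukin-18, and it cuts gasdermin D, whose fragment forms pores in the plasma membrane and causes the lytic death called pyroptosis. Caspase-11, the product of mouse Casp4, cuts gasdermin D after it binds bacterial lipopolysaccharide in the cytosol. Necroptosis is the lytic death that runs from the kinases RIPK1 and RIPK3 to MLKL, and caspase-8 holds it back by cutting both kinases. TBK1 phosphorylates RIPK1 and restrains its kinase activity, which links the gene named in the labels to this pathway. The counts measure transcripts, not protein, cleavage or phosphorylation.

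The libraries held 31077585 to 47349648 reads in genes, and each TBK1-DKO library was deeper than each WT library. Levels are depth-scaled counts with TMM factors, in the usual CPM unit, and a log2 fold change above 0 means higher in TBK1-DKO. Adjusted p-values come from the quasi-likelihood F test of edgeR, by the method of Benjamini and Hochberg over all genes tested, and genes under 0.05 were called. Tbk1 itself averaged 82.3 ± 2.69 CPM under the TBK1-DKO label, against 85.0 ± 5.08 CPM in WT (SD, n = 3 libraries per group), a log2 fold change of -0.05. The 95% interval was -0.18 to 0.09 and Tbk1 was not called, so whole-gene counts showed no loss of its transcript. Such counts would miss a deletion of part of the gene, so they neither bear out nor refute the label. Rose and fell below refer to the labelled groups. TBK1-DKO 2 and WT 1 stood apart from the other libraries of their groups: they differed from them with a chi-square of 12.6 to 36.2 per degree of freedom over genes, against 2.40 and 2.58 for the remaining pair of each group. Dendritic cell markers were present in every library, with Flt3 at 146 to 153 CPM. Flt3 hardly differed between the groups, but of the 10 dendritic cell markers listed 6 fell and 1 rose. No marker of any cell type, dendritic cells included, was at 0 in any library, among the 58 found of the 59 listed.

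Casp4 rose, Casp8 fell slightly, and the remaining 8 genes were not called. Casp4 was 2.41 times as high in TBK1-DKO as in WT (95% interval 2.04 to 2.85), whereas the level of Casp8 was 11.7% lower. Over all genes tested, 23.6% were called, 13.7% as higher and 9.90% as lower, so 2 of 10 lay near the background. The median log2 fold change was -0.09 over the 10 genes and 0.00 over all genes. The groups did not overlap for Casp4, Casp8 and Mlkl, 3 of the 10, against 41.1% of all genes tested. Without TBK1-DKO 2 and WT 1, Casp4 rose and Casp8, Pycard, Ripk3 and Mlkl fell, 5 of 10 called where 47.7% of all genes were. That setting keeps 2 libraries per group and drops those seen to stand apart in these data. This choice narrows the spread, so p-values from it tend to be too small. With 1 library left out, 1 to 3 of the 10 were called, where the share of all genes lay between 15.7% (without WT 2) and 30.2% (without TBK1-DKO 2). With length and GC offsets 3 of 10 were called, against 32.0% of all genes, and at an adjusted p under 0.01 only Casp4, against 13.9%.

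**Figure D1:**
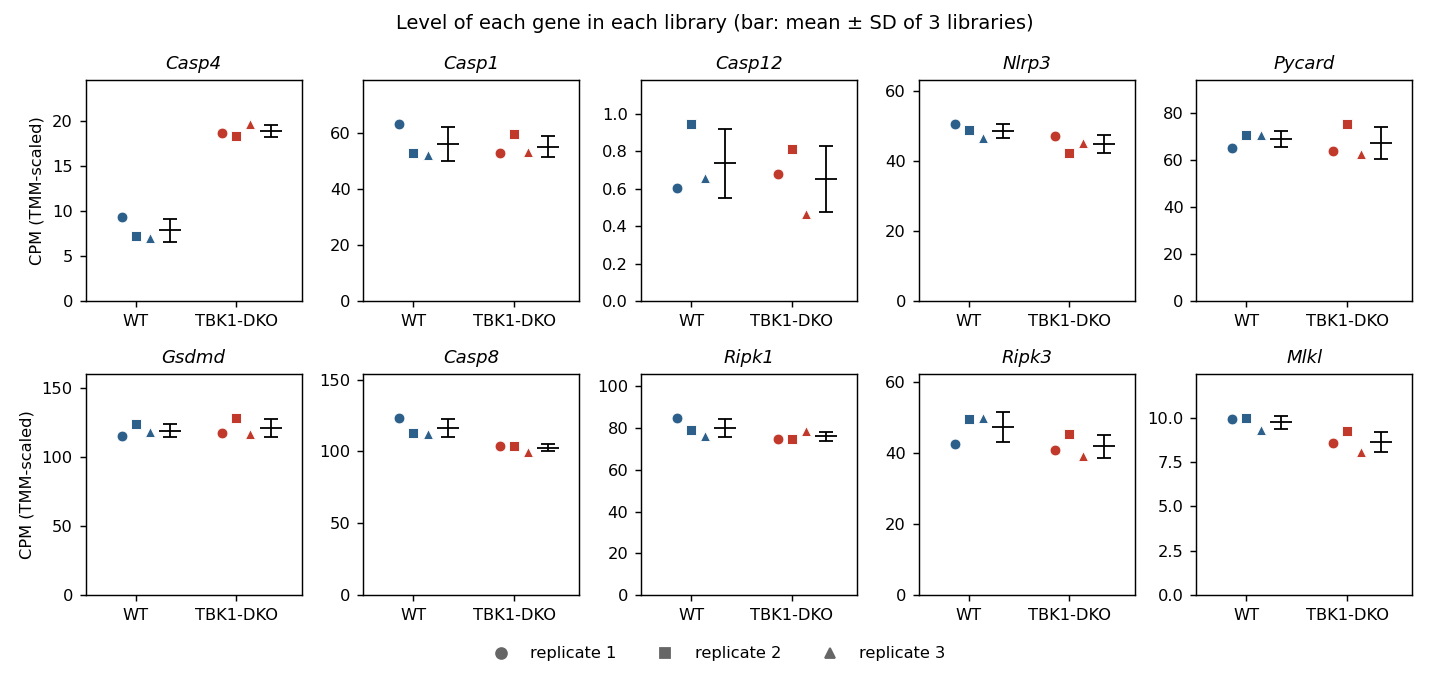
Level of each of the 10 genes in CPM, on linear axes that start at 0, in 3 WT (blue) and 3 TBK1-DKO (red) libraries, with the mean ± SD of each group as a black bar. Casp4 lies at 6.99 to 9.38 CPM in WT and 18.4 to 19.7 CPM in TBK1-DKO, and the groups also do not overlap for Casp8 and Mlkl.

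Casp4 (ENSMUSG00000033538.13) is a protein-coding gene on the plus strand of chromosome 9, from 5308828 to 5336783 in GRCm38, with 9 exons in its main transcript. It had 885, 838 and 886 reads in TBK1-DKO 1, 2 and 3 and 295, 261 and 235 reads in WT 1, 2 and 3. The levels were 18.7, 18.4 and 19.7 CPM in the TBK1-DKO libraries, against 9.38, 7.25 and 6.99 CPM in WT. WT 1 was the highest of the WT libraries, and every TBK1-DKO library lay well above it. The log2 fold change was 1.27 (SE 0.11, 95% interval 1.03 to 1.51; adjusted p = 2.7e-05, edgeR), the 208th smallest p of all genes tested. The call held with each library left out, with adjusted p between 8.9e-06 and 4.4e-04 (edgeR), and without both TBK1-DKO 2 and WT 1, where the log2 fold change was 1.42.

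Casp1 and Casp12 flank Casp4 on the same strand and did not follow it. Casp1 (ENSMUSG00000025888.5, 5298517 to 5307265, 10 exons) encodes the inflammasome caspase and starts 0.0103 Mb before Casp4. It stood at 52.7, 59.3 and 53.0 CPM in the TBK1-DKO libraries, against 63.0, 52.6 and 52.1 CPM in WT. The groups overlapped, and the log2 fold change was -0.02 (95% interval -0.21 to 0.17). Casp12 (ENSMUSG00000025887.10, 5345430 to 5373032, 11 exons), a related caspase gene, starts 0.0366 Mb after Casp4. It was near the lower end of what these libraries resolve, with 32, 37 and 21 reads in TBK1-DKO and 19, 34 and 22 in WT. Its summed 90 reads against 75 give a ratio of 0.88 after scaling (exact binomial 95% interval 0.64 to 1.21, counting error only), and its log2 fold change was -0.18 (95% interval -0.80 to 0.44, edgeR), so a change of the size seen in Casp4 lies outside both intervals. Its value moved with single libraries, from 0.035 without WT 2 to -0.39 without TBK1-DKO 2, and was -0.49 without both TBK1-DKO 2 and WT 1 (adjusted p = 0.206, edgeR). No 50-base stretch of the transcripts of Casp1, Casp4 or Casp12 occurred in a transcript of any other gene in GENCODE, so reads of at least that length would not be shared between them.

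Ratios of reads within a library do not depend on the scaling between libraries. Casp4 had 0.355, 0.31 and 0.371 reads per read of Casp1 in TBK1-DKO 1, 2 and 3, against 0.149, 0.138 and 0.134 for the WT libraries, a ratio of means of 2.46. Per read of Gsdmd, the ratio of means for Casp4 was 2.37. Both ratios separated the groups without overlap (exact permutation test over 6 libraries, two-sided p = 0.1, the smallest that 3 against 3 allow; 0.23 after Benjamini-Hochberg adjustment over the 7 ratios computed). Casp8 per Ripk1 was also separate, with a ratio of means of 0.93. Casp12 per Casp1, Mlkl per Ripk3, Ripk3 per Ripk1 and Nlrp3 per Pycard overlapped between the groups, with ratios of means from 0.88 to 0.99.

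The sequences before the starts of Casp1, Casp4 and Casp12 are shown as a description, and any part of theirs in the levels was not tested. Each is the stretch from RefSeq's promoter table (GRCm38.p6, plus strand, 5′ to 3′) up to the base before the first annotated transcript base. Capitals mark matches on either strand to the NF-kB consensus or to the gamma-activated site TTCNNNGAA, where STAT factors bind.
Casp1, chr9:5298267-5298516: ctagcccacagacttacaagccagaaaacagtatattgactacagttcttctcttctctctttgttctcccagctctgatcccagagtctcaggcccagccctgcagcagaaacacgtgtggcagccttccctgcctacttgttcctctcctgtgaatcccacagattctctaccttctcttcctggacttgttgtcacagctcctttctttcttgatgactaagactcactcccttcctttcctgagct
Casp4, chr9:5308599-5308827: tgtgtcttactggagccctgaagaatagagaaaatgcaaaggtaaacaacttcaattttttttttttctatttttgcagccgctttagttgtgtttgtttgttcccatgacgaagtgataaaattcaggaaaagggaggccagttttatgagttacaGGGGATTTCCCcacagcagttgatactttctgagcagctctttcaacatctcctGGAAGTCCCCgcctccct
Casp12, chr9:5345226-5345429: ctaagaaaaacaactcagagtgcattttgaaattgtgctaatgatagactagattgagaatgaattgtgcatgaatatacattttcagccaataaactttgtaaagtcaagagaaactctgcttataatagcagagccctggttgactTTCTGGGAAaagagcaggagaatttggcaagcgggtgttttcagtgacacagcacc
The Casp4 window held 3 matches to the NF-kB consensus, of which a pair overlaps at -93 and -92 and the other lies at -39 relative to RefSeq's first start of the gene. The Casp12 window held gamma-activated site matches at -102 and -36, the latter inside annotated exon and not shown. Casp1 had no match to these motifs or to the core of the interferon-stimulated response element (GAAA, any 2 bases, GAAA).

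The table held promoters of 9 of the 10 genes, not of Gsdmd. In windows of 300 bases (250 before to 50 after a start), the NF-kB consensus was found for Casp4 and Nlrp3, 2 of 9 genes. It was found in 8.46% of all 32851 windows and for 9.55% of the 27025 genes that have any window. The gamma-activated site was found for Casp12 and Ripk1, in 8.30% of all windows and for 9.55% of those 27025 genes. The response element core was found for Ripk1, in 3.44% of all windows and for 3.99% of those 27025 genes. A match describes letters only, and binding was not measured.

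**Figure D2:**
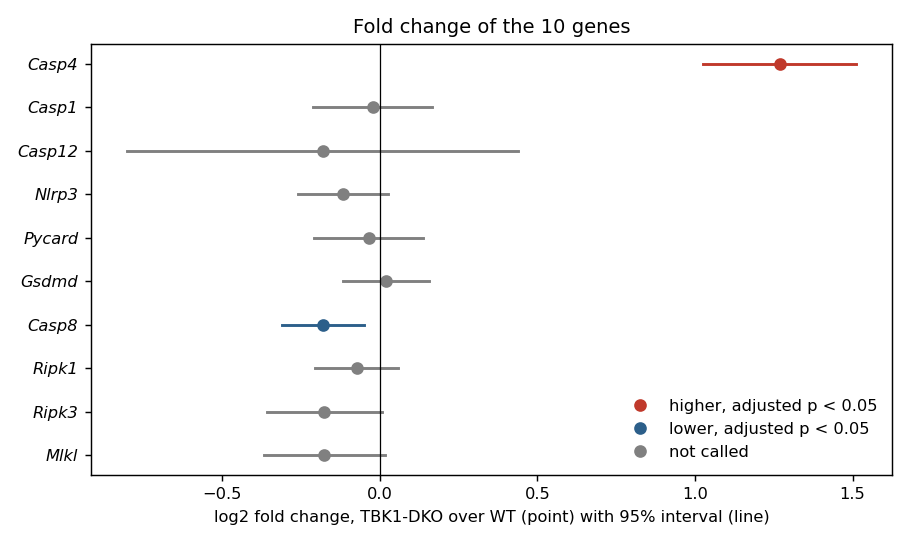
Log2 fold change of TBK1-DKO over WT for the 10 genes (points) with 95% intervals (lines), coloured by call at an adjusted p under 0.05. Casp4 stands at 1.27, Casp8 at -0.18, and the intervals of the other genes include 0.

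The inflammasome sensor, its adaptor and the pore protein were not called. Nlrp3 (chromosome 11, 59541568 to 59566956) stood at 47.3, 42.4 and 45.2 CPM in the TBK1-DKO libraries, against 50.6, 48.9 and 46.6 CPM in WT. TBK1-DKO 1 lay above WT 3, and the log2 fold change was -0.12 (95% interval -0.26 to 0.03). Pycard (chromosome 7, 127989708 to 127993867), the ASC gene, stood at 63.5, 75.1 and 62.6 CPM in the TBK1-DKO libraries, against 64.9, 70.7 and 70.6 CPM in WT. TBK1-DKO 2 was the highest of the 6 libraries and the other TBK1-DKO libraries the lowest. Its log2 fold change was -0.04 (95% interval -0.21 to 0.14), and -0.18 without TBK1-DKO 2 and WT 1 (adjusted p = 1.0e-04, edgeR). The latter p, from 2 libraries per group after the unlike ones were dropped, tends to be too small. Gsdmd (chromosome 15, 75862327 to 75867408), the gasdermin D gene, stood at 117, 128 and 117 CPM in the TBK1-DKO libraries, against 115, 124 and 118 CPM in WT. The groups overlapped, with a log2 fold change of 0.02 (95% interval -0.12 to 0.16) whose sign turned with upper-quartile scaling.

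Casp8 and the RIPK-MLKL genes differed by small amounts. Casp8 (chromosome 1, 58795374 to 58847503), the caspase that restrains necroptosis and starts death receptor apoptosis, stood at 104, 104 and 99.8 CPM in the TBK1-DKO libraries, against 123, 113 and 112 CPM in WT. Every TBK1-DKO library lay below every WT library, and WT 1 was the highest. The log2 fold change was -0.18 (SE 0.06, 95% interval -0.31 to -0.05; adjusted p = 0.0496, edgeR). This call was lost without TBK1-DKO 1 or 3 or any of WT 1, 2 and 3 (adjusted p = 0.062 to 0.17, edgeR). It was kept without TBK1-DKO 2 and without both TBK1-DKO 2 and WT 1.

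Ripk1 (chromosome 13, 34002363 to 34037147), the kinase that TBK1 restrains, stood at 74.9, 74.8 and 78.6 CPM in the TBK1-DKO libraries, against 84.9, 79.1 and 76.2 CPM in WT. The groups overlapped through TBK1-DKO 3 and WT 3, and the log2 fold change was -0.07 (95% interval -0.21 to 0.06). It was -0.029 without WT 1 and -0.12 without WT 3, and was not called in either. Serpinb6a overlaps Ripk1 on the other strand, and 5.54% of the 50-base stretches of Ripk1 transcripts also occur in the pseudogene Gm17084. The level of Ripk1 is uncertain to that extent, since the strand setting of the counts is not given. For Casp8, 4.37% of such stretches occur in Gm20257.

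Ripk3 (chromosome 14, 55784995 to 55788865), the kinase that activates MLKL, stood at 40.9, 45.5 and 39.3 CPM in the TBK1-DKO libraries, against 42.4, 49.5 and 49.9 CPM in WT. TBK1-DKO 2 lay above WT 1, and only these libraries made the groups overlap. The log2 fold change was -0.18 (SE 0.08; adjusted p = 0.16, edgeR). It passed the threshold without TBK1-DKO 2 (-0.26, adjusted p = 0.021), without WT 1 (-0.25, adjusted p = 0.046), without both (-0.32, adjusted p = 2.08e-08) and with offsets for length and GC content (-0.23, adjusted p = 0.0079; all edgeR). Mlkl (chromosome 8), the executioner of necroptosis, stood at 8.59, 9.24 and 8.06 CPM in the TBK1-DKO libraries, against 9.92, 10.0 and 9.34 CPM in WT. The groups lay close together without overlap, and the log2 fold change of -0.18 (95% interval -0.37 to 0.02) was not called. It was called without both TBK1-DKO 2 and WT 1 (-0.23, adjusted p = 0.034, edgeR). For Ripk3 and Mlkl alike, p-values without both libraries rest on 2 per group after the unlike ones were dropped, and tend to be too small.

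**Figure D3:**
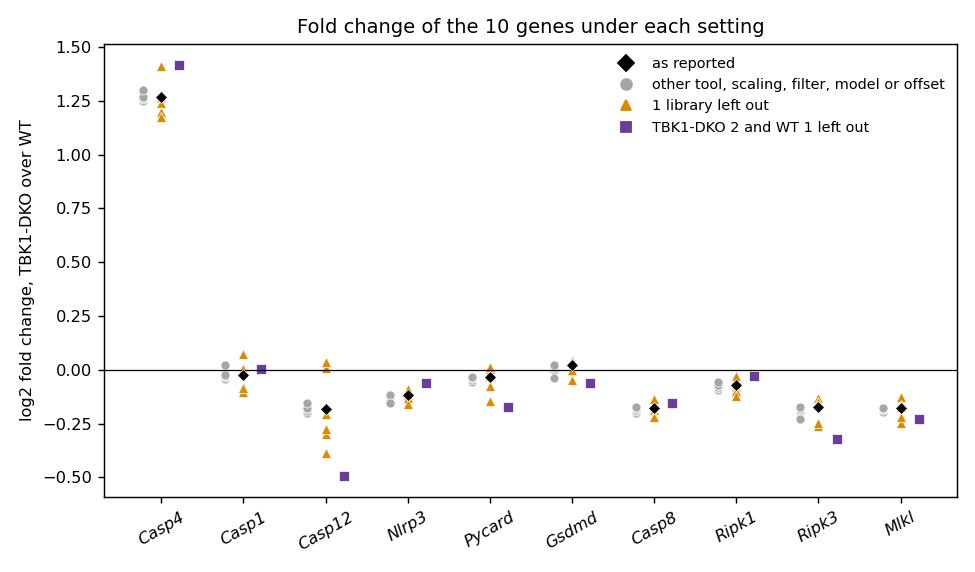
Log2 fold change of TBK1-DKO over WT for the 10 genes as reported (black diamonds), with another tool, scaling, filter, model or offset (grey circles), with 1 library left out (orange triangles) and without TBK1-DKO 2 and WT 1 (purple squares). Casp4 stays between 1.18 and 1.42. The lowest points are those of Casp12, at -0.49 without TBK1-DKO 2 and WT 1 and at -0.39 without TBK1-DKO 2. Ripk3 reaches -0.32 without TBK1-DKO 2 and WT 1.

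Levels of different genes were compared per kilobase of annotated exon. In WT the order was Gsdmd (50.1 ± 1.93 CPM per kilobase), Casp8 (40.2 ± 2.16), Casp1 (37.3 ± 4.12), Ripk3 (20.6 ± 1.84), Pycard (18.1 ± 0.87), Nlrp3 (12 ± 0.49), Ripk1 (9.60 ± 0.54), Mlkl (4.23 ± 0.16), Casp4 (2.12 ± 0.35) and Casp12 (0.19 ± 0.05; all SD, n = 3). Casp8 and Casp1 overlapped over libraries, as did Ripk3 and Pycard. Every other pair of neighbours in that order was separate. The transcript of the pore protein was thus the most abundant per kilobase and the caspase-12 transcript the least. In TBK1-DKO, Casp4 stood at 5.10 ± 0.18 CPM per kilobase, above Mlkl at 3.75 ± 0.26. The exon length behind a level matters for Casp4: per kilobase of the main annotated transcript alone, it stood at 5.49 ± 0.92 in WT, above Mlkl at 4.94 ± 0.18, with separate groups of libraries only in TBK1-DKO (13.2 ± 0.47 against 4.37 ± 0.30). It also matters for Nlrp3 and Ripk1, which by this measure overlapped in WT, at 12.1 ± 0.50 and 12.4 ± 0.69.

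Within 5 Mb of Casp4, 5 of 22 tested genes rose (22.7%), against 13.7% of all genes. Casp4, on which the window was centred, is counted among them, which raises the share. In either direction 22.7% were called, against 23.6% of all genes. By edgeR's quasi-likelihood test 0 fell, against 9.90% of all genes, 17 were not called, and the median log2 fold change was -0.03. Besides Casp4 the genes that rose were Gucy1a2, a guanylate cyclase subunit gene, and the matrix metalloproteinase genes Mmp8, Mmp27 and Mmp7. Mmp8, the neutrophil collagenase gene, starts 2.25 Mb after Casp4 and stood at 38.8 ± 2.72 CPM in TBK1-DKO against 20.7 ± 3.30 CPM in WT. The other 3 stood at no more than 1.08 CPM in any library, with at most 49 reads. The Gucy1a2 call was lost without WT 1 or WT 3 (adjusted p = 0.14 and 0.14), and the Mmp27 call without TBK1-DKO 1 or 2 or WT 2 or 3 (adjusted p = 0.052 to 0.12, edgeR). Without WT 3, 3 of 22 rose, where 1433 of all 14678 genes tested did. With 1 library left out, the share of all genes called in either direction was 15.7% to 30.2%. Without TBK1-DKO 2, Casp4 and Mmp8 rose and Mmp12, a macrophage elastase gene, fell (adjusted p = 0.011, edgeR), while Gucy1a2 and Mmp7 did not pass the filter. Without TBK1-DKO 1, 9230110C19Rik was called lower (adjusted p = 0.031, edgeR), and Gucy1a2 did not pass the filter. These last genes, Mmp12 and 9230110C19Rik, were named after their values were seen. Between Msantd4, 0.932 Mb before Casp4, and Dync2h1, 1.62 Mb after it, Casp1 and Casp12 were the only other genes tested.

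**Figure D4:**
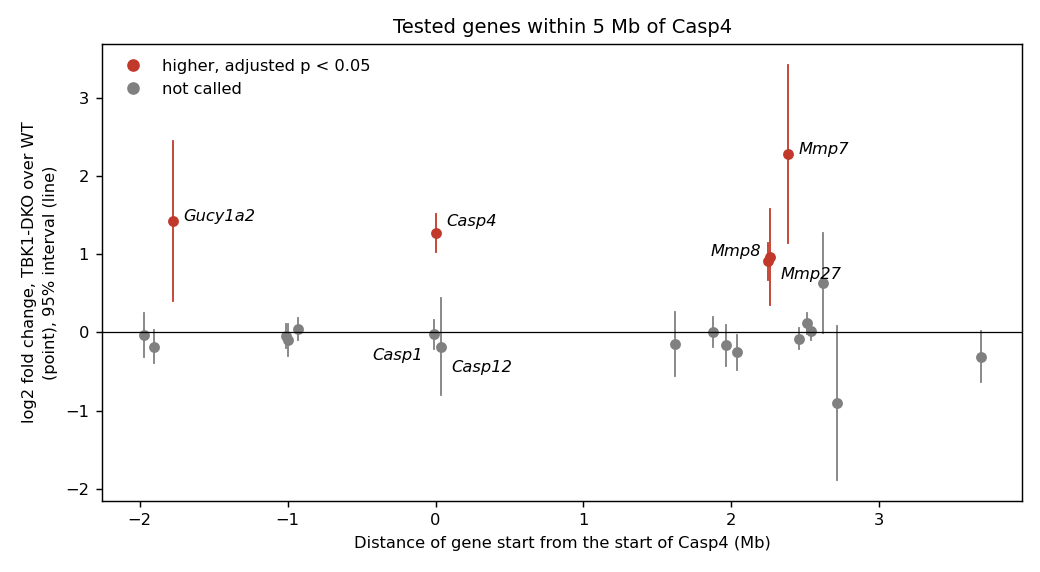
Log2 fold change of TBK1-DKO over WT, with 95% intervals, of the 22 tested genes within 5 Mb of Casp4, against the distance of each gene's start from the start of Casp4 in Mb. Casp4 stands at 1.27 between Casp1 at -0.02 and Casp12 at -0.18, and the matrix metalloproteinase genes that rose lie more than 2 Mb away.

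Over the 6 libraries, the log2 CPM of Casp4 ran most closely with Tal1 (Pearson r = 0.999), Art4 (0.999) and Ect2 (0.999). Tal1, a transcription factor gene of blood stem cells and the erythroid lineage, averaged 98.1 CPM in TBK1-DKO and 62.7 CPM in WT, Art4 18.2 against 11.3 CPM, and Ect2, a cytokinesis gene, 41.9 against 26.3 CPM. These are descriptions over 2 groups of 3 libraries. Many genes that are higher in TBK1-DKO score high by this measure: 847 of 14387 genes had r over 0.95.

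Genes around the 10 in the same pathways changed in both directions. In 5 lists of such genes, 85 were tested: 12 rose, 13 fell and 60 missed the threshold, a share called of 29.4% against 23.6% of all genes. Without TBK1-DKO 2 and WT 1, 30 rose and 21 fell, where 47.7% of all genes were called. The lists were chosen with earlier results known, and no list is called particular from these counts.

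Among inflammasome sensors and their partners, 3 of 18 tested rose, 4 fell and 11 missed the threshold (10 rose and 5 fell without TBK1-DKO 2 and WT 1), with a median log2 fold change of 0.05. Nlrp1a, a sensor gene of the NLRP1 family, stood at 9.41, 9.02 and 9.40 CPM in the TBK1-DKO libraries, against 4.45, 4.41 and 5.03 CPM in WT, a log2 fold change of 1.0 (SE 0.09). The Naip genes encode receptors that detect bacterial flagellin and secretion needles and pass the signal to NLRC4. Naip5 stood at 35.1, 35.0 and 33.1 CPM in the TBK1-DKO libraries, against 57.3, 49.4 and 47.7 CPM in WT, without overlap. Naip5 (-0.58), Naip1 (-0.68) and Naip2 (-0.27) fell, while Naip6 stood at -0.20 and was not called. Reads of the Nlrp1 and Naip families may be split among near-identical copies. P2rx7, the ATP-gated channel that triggers NLRP3, fell by 0.34. Dpp9, a peptidase that holds NLRP1 in check, rose by 0.21 and Nlrp12 by 0.35. The Dpp9 call was lost without TBK1-DKO 1 or 3 or WT 1 or 2 (adjusted p = 0.057 to 0.13) and the Nlrp12 call without any library but WT 1 (adjusted p = 0.052 to 0.19, edgeR).

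Among pyroptosis executors and cytokine substrates, 2 of 10 tested rose, 4 fell and 4 missed it (3 and 5 without TBK1-DKO 2 and WT 1), with a median of -0.25. The other 7 listed genes, all further gasdermin genes, had at most 10 reads in any library. Il18, a cytokine precursor matured by caspase-1, stood at 46.6, 55.3 and 46.2 CPM in the TBK1-DKO libraries, against 73.7, 79.4 and 78.1 CPM in WT. Il1b, the other such precursor gene, stood at 145, 149 and 144 CPM against 197, 181 and 181 CPM. Both were lower in every TBK1-DKO library, with log2 fold changes of -0.64 (SE 0.08) and -0.35 (SE 0.06). Ninj1, which ruptures the membrane after the pores form, fell by 0.47, and Il18r1, a receptor chain for interleukin-18, by 0.34. Il1r2, the decoy receptor of interleukin-1, rose by 0.40 and Dfna5, which encodes gasdermin E, by 0.47. The calls of Il18r1 (adjusted p = 0.051 to 0.061 without TBK1-DKO 1 or 3 or WT 1 or 2), Il1r2 (0.055 and 0.064 without TBK1-DKO 3 or WT 3) and Dfna5 (0.056 to 0.10 without TBK1-DKO 3, WT 2 or WT 3) were lost with a library left out (adjusted p, edgeR).

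**Figure D5:**
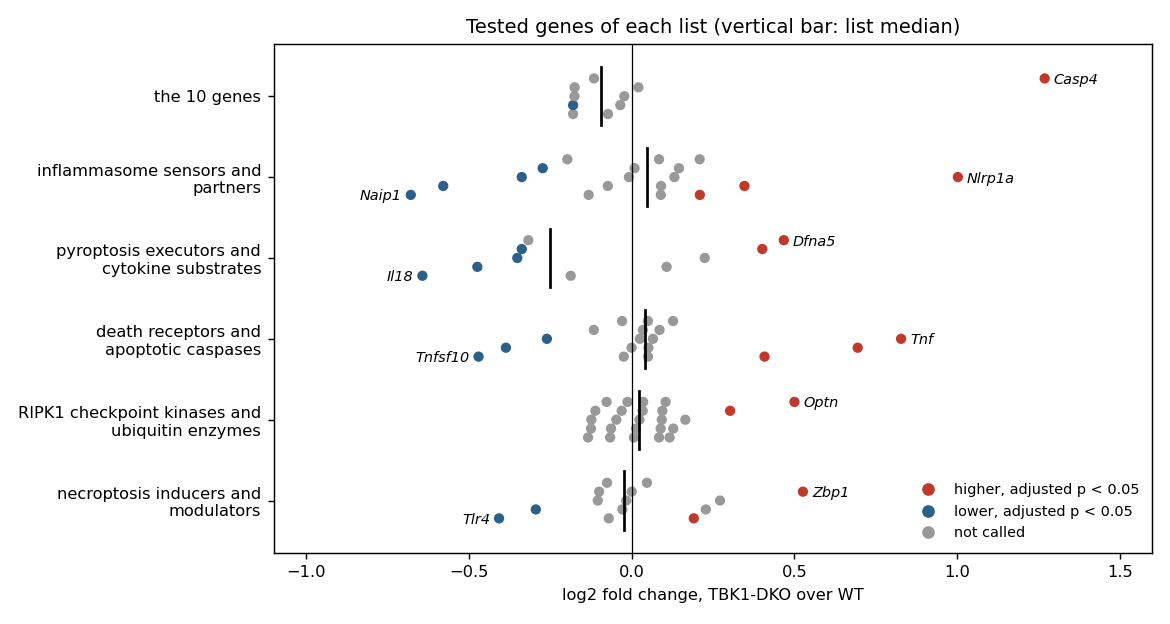
Log2 fold change of TBK1-DKO over WT of each tested gene in the 10 genes and the 5 lists around them (points, coloured by call at an adjusted p under 0.05), with the median of each list as a vertical bar. Casp4 at 1.27 and Nlrp1a at 1.0 lie farthest right, and Naip1 at -0.68 and Il18 at -0.64 farthest left.

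Of the death receptor and apoptotic caspase genes, 3 of 18 rose, 3 fell and 12 missed it (5 and 4 without TBK1-DKO 2 and WT 1), with a median of 0.04. Fas, the death receptor that recruits caspase-8, stood at 16.8, 17.5 and 16.9 CPM in the TBK1-DKO libraries, against 10.9, 10.4 and 10.4 CPM in WT. Tnf, whose receptor assembles RIPK1 complexes, stood at 20.4, 22.3 and 19.2 CPM against 11, 13.0 and 10.8 CPM. Tnfrsf10b, the mouse TRAIL receptor gene, rose by 0.41, while its ligand gene Tnfsf10 fell by 0.47, Fasl by 0.39 and Casp6 by 0.26. Ligands and receptors of the same pair thus moved in opposite directions for Fas and for TRAIL. The calls of Tnfrsf10b (adjusted p = 0.055 without WT 2), Fasl (0.060 and 0.053 without TBK1-DKO 3 or WT 2) and Casp6 (0.056 to 0.090 without TBK1-DKO 1 or 3 or WT 2 or 3) were lost with a library left out (adjusted p, edgeR).

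Of the kinases and ubiquitin enzymes that act on RIPK1, 2 of 25 rose, 0 fell by edgeR's quasi-likelihood test and 23 were not called (7 and 2 without TBK1-DKO 2 and WT 1), with a median of 0.02. Optn, an autophagy receptor that binds TBK1, stood at 33.8, 35.4 and 35.8 CPM in the TBK1-DKO libraries, against 26.8, 23.8 and 23.6 CPM in WT. Tnip1, a partner of the ubiquitin editor A20, rose by 0.30, a call lost without WT 2 (adjusted p = 0.058, edgeR). Spata2 (0.16) and Rnf31 (0.13), which encode parts of the linear ubiquitin machinery, were not called.

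Among necroptosis inducers and modulators, 2 of 14 rose, 2 fell and 10 missed it (5 and 5 without TBK1-DKO 2 and WT 1), with a median of -0.02. Zbp1, the nucleic acid sensor that engages RIPK3, stood at 55.4, 59.6 and 55.5 CPM in the TBK1-DKO libraries, against 40.3, 39.1 and 39.0 CPM in WT, a log2 fold change of 0.53 (SE 0.06). Ticam1, the adaptor that links Toll-like receptors to RIPK3, rose by 0.19. The receptors that use it, Tlr3 (-0.29) and Tlr4 (-0.41), fell. These last 3 calls were lost with a library left out (adjusted p, edgeR): Ticam1 without TBK1-DKO 1 or 3 or WT 2 or 3 (adjusted p = 0.078 to 0.18), Tlr3 without TBK1-DKO 3, WT 1 or WT 2 (0.062 to 0.11), and Tlr4 without TBK1-DKO 3 or WT 1 (0.056 and 0.083).

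Markers of other cell types moved with the labels in the same libraries. All 10 neutrophil and precursor markers rose, with summed levels of 5729 to 6617 CPM in the TBK1-DKO libraries, against 2361 to 2633 CPM in WT, S100a9 and Ngp being the most abundant. All 7 erythroid and platelet markers rose, with 2052 to 2193 CPM against 1129 to 1274 CPM, and 5 of 6 eosinophil, basophil and mast cell markers rose, with 60.5 to 71.4 CPM against 21.4 to 23.4 CPM. Of 10 monocyte and macrophage markers 7 fell and 1 rose, with 3550 to 3810 CPM against 4978 to 5297 CPM. Of 10 dendritic cell markers 6 fell and 1 rose, with 4263 to 4675 CPM against 4746 to 5124 CPM. Of 8 NK and T cell markers 7 fell (353 to 376 CPM against 438 to 475 CPM), and of 7 B and plasma cell markers 3 rose and 2 fell (3242 to 3475 CPM against 3018 to 3079 CPM). The part of these shifts in the values of Casp4, Casp8 and the pathway genes was not tested. In these bulk samples, fewer cells of a type and less RNA per cell cannot be told apart.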

How the data were processed

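Whole-number read counts per gene symbol were used as the authors deposited them, 1 library per file, neither scaled nor pooled. TopHat, TopHat2, HTSeq and DESeq2 and the mm10 build are named, per the submitters' processing notes; which versions, annotation and strand setting applied is not given in the sources used here. Summary rows that name no gene held 8.20% to 10.7% of the records of each library and were left out of library sizes and tests. Gene positions and exon lengths came from GENCODE M21 (GRCm38, the assembly of mm10), in which 21777 symbols matched directly, 1276 matched through a RefSeq synonym and 367 had no position.

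The test was edgeR 4.0.16 (R 4.3.3). The filterByExpr function, at a minimum count of 10, kept 14388 of 23420 genes, libraries were scaled by TMM factors (0.996 to 1.012), and the groups were compared without covariates by the robust quasi-likelihood F test. A gene was called where its p, adjusted by the Benjamini-Hochberg method over every tested gene, was under 0.05. Standard errors were derived from the F statistic. The test was run on simulated counts with 200 genes changed: among 14288 genes it called 24% of those moved by a log2 of 0.3 and 86% of those moved 2-fold. With so few genes changed, the adjusted threshold asks for a smaller p than in the data, where 3402 genes were called. Samples were grouped by title.

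The members and lists were chosen with earlier results of these data known. The text names all members and Tbk1. Of each list it names up to 4 genes with the smallest p and called genes whose call changed when a library was left out. It also names called genes nearest to Casp4, up to 2 markers a cell type by mean CPM, and the 3 genes most like Casp4 in pattern; Naip2, Naip6, Flt3, Mmp12 and 9230110C19Rik were named after their values were seen. The alternatives were DESeq2 1.42.0, limma-voom (limma 3.58.1), RLE and upper-quartile factors, other filters on low counts, no robust option, the replicate number as a block, each library left out, TBK1-DKO 2 and WT 1 left out, haemoglobin and immunoglobulin genes removed, and an adjusted p under 0.01. Offsets for exon length and GC content (99.1% of tested genes had both) were added after the data were seen. Same-numbered libraries of the groups deviated from their group means with correlations of 0.18, 0.15 and -0.065 over genes, so the number was not taken as a pairing. Within groups, library pairs differed with a chi-square of 2.40 to 36.2 per degree of freedom over genes, more than the sampling noise of reads.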

Additional observations from a re-analysis of the deposited data

How the results depend on the processing

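Casp4 kept its direction and its call under every alternative run. Of the genes called (3402; 1978 higher, 1424 lower), leaving out 1 library gave 2308 to 4352 (1336 to 2270 higher, 972 to 2082 lower), leaving out TBK1-DKO 2 and WT 1 gave 6897 (3500 and 3397), and length and GC offsets gave 4606 (2245 higher and 2361 lower), which turns the balance of the directions from 58.1% to 48.7% higher. Members called (2) ranged from 1 to 3 with a library left out, and were 5 without TBK1-DKO 2 and WT 1 and 1 at an adjusted p under 0.01, where Casp8 (-0.18) was lost. Pathway genes called (25) ranged from 15 (without TBK1-DKO 3 or WT 2) to 30, and were 51 without TBK1-DKO 2 and WT 1. Genes called near Casp4 (5) ranged from 3 to 4 with a library left out, where 15.7% to 30.2% of all genes were called. They were 2 with the stricter filter, which left 16 of the 22 tested and called 3167 genes in all, and 1 of 5 within 1 Mb. With a library left out, log2 fold changes ranged from -0.10 to 0.071 (Casp1), -0.39 to 0.035 (Casp12), -0.22 to -0.14 (Casp8), -0.048 to 0.046 (Gsdmd), -0.16 to -0.088 (Nlrp3), -0.12 to -0.029 (Ripk1), -0.15 to 0.013 (Pycard), -0.26 to -0.13 (Ripk3), -0.25 to -0.13 (Mlkl) and -0.10 to 0.00016 (Tbk1). Without TBK1-DKO 2 and WT 1, they were 0.0010 (Casp1), -0.49 (Casp12), -0.062 (Gsdmd), -0.060 (Nlrp3), -0.029 (Ripk1), -0.18 (Pycard), -0.32 (Ripk3), -0.23 (Mlkl) and 0.016 (Tbk1). With length and GC offsets they were 0.023 (Casp1), -0.038 (Gsdmd) and -0.23 (Ripk3), and with upper-quartile factors -0.00097 (Gsdmd). The cause of these shifts was not tested. With the replicate number as a block, 4086 genes were called (2313 higher, 1773 lower); TBK1-DKO 3 did not correlate best with its own number (-0.065). Small changes can be missed: on simulated counts a log2 change of 0.3 was called for 24% of genes. Only 200 genes were changed there, against 3402 called in the data, so the adjusted threshold asked for a smaller p. The 24% is therefore not the sensitivity of the comparison itself.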
